A study of Caenorhabditis elegans with 80 samples.

Results

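The genes described here are the spermatogenesis genes of Caenorhabditis elegans other than the major sperm protein (msp) genes. They were chosen by WormBase symbol alone: every gene whose symbol starts with spe-, nspd-, nsph-, ssp-, sss-, smz-, spch- or msrp-, and the phosphatase genes gsp-3 and gsp-4. The rule gave 74 gene IDs with 73 symbols (ssp-9 belongs to 2 IDs) of the 46904 IDs in the count table, and each of the 74 had at least 1 count. RNA of whole hermaphrodites was sequenced in 80 libraries. The wild-type strain N2 was sampled at day 6, day 8, day 11, day 14 and day 18 with 6 libraries at each age. A second set of day 6 libraries held 30 of N2 and 20 of CF1038, which carries daf-16(mu86), a mutant allele of the FOXO transcription factor gene daf-16. All groups shared growth at 20°C on plates with OP50-1 bacteria and streptomycin, and FUDR, an inhibitor of DNA synthesis, kept the populations synchronized. The labels do not give the stage from which the days are counted or the number of animals in a library, and nothing in them says that each library is a culture of its own. The p-values therefore rest on the spread among these libraries, which may be technical.

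A hermaphrodite makes sperm for a short time at the end of larval development, then switches its germ line to oocytes for the rest of its life and stores the sperm in the spermatheca. Spermatocytes transcribe the genes for the sperm before and during meiosis, since mature spermatids are transcriptionally silent. The spe genes were named for mutants with defective sperm and act in spermatid assembly, in sperm activation or at fertilization, while the nspd, ssp and msrp genes are families of short genes and the nsph genes a family of longer ones, all named for nematode-specific or sperm-enriched products. Levels below are counts per 1000000 counts of a library (CPM), scaled by TMM, a normalization that corrects the library totals for a few very abundant genes. Changes are log2 fold changes from edgeR, and a gene is said to rise or fall where the Benjamini-Hochberg adjusted p over all tested genes was under 0.05.

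The library totals ranged from 34.443 to 44.161, in units of 1000000 counts. The level of daf-16 was 130.9 to 194.4 CPM (lowest to highest, median 165) in the 30 N2 libraries of the second set and 73.7 to 108 CPM (median 94.8) in the 20 CF1038 libraries, with no overlap. These daf-16 values are CPM of the library total, without the TMM scaling. A filter on low counts was set for each fit from its own libraries. In the fit of the ages it was 0.263 CPM in at least 6 libraries and left 71 of the 74 spermatogenesis genes. The fit of the strains, with larger groups and so another limit, kept 55. Of the 71, 52 reached the age filter in 6 of the 18 libraries of days 6 to 11. The other 19 reached it only with days 14 and 18, so those 19 had to be higher late in the series. They were not set apart in the counts and medians of the role groups below. The 3 genes not tested over age were nspd-8, nsph-4.3 and spe-29, each at a mean of at most 0.0853 CPM at every age. Several genes have near-identical copies whose reads were divided by the authors' counting (spch-2 and spch-3, nsph-4.1 and nsph-4.2, nspd-3 and nspd-6, the ssp-9 pair, msrp-3 and msrp-4, nspd-4 and nspd-5), so their single values are uncertain.

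Spermatogenesis genes rose strongly with age in N2. At day 18, 68 of the 71 tested genes (95.8%) were higher than at day 6, where 29% of all 16710 tested genes were higher, and 1 gene, spe-39, was lower, where 28% of all tested genes were lower (57% changed either way). The median log2 fold change of the 71 was 5.48, against -0.01 over all tested genes. In 67 genes every day 18 library lay above every day 6 library, which was so for 19% of all tested genes, and in spe-39 every one lay below, which was so for 21.9%. The 30 genes that passed the filter level in all 6 day 6 libraries, and so did not enter through their late values, gave 27 rises and 1 fall, and the other 2 did not pass. In 45 genes the fitted rise was at least 16-fold and in 31 at least 64-fold. Of these, ssp-19, ssp-32 and spe-27 had at most 3 counts over the 6 day 6 libraries together, so the size of their fitted change depends on the fit's prior count. Without them the median was 5.23 and the highest value was 9.17, that of msrp-3. This value is uncertain too, since msrp-3 shares reads with msrp-4, whose change was 3.93. Together these copies were at 0.287 ± 0.190 CPM at day 6 and 18.6 ± 7.94 CPM at day 18 (SD, n = 6). In these whole-animal samples, more cells of a type and more RNA per cell cannot be told apart.

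**Figure D1:**
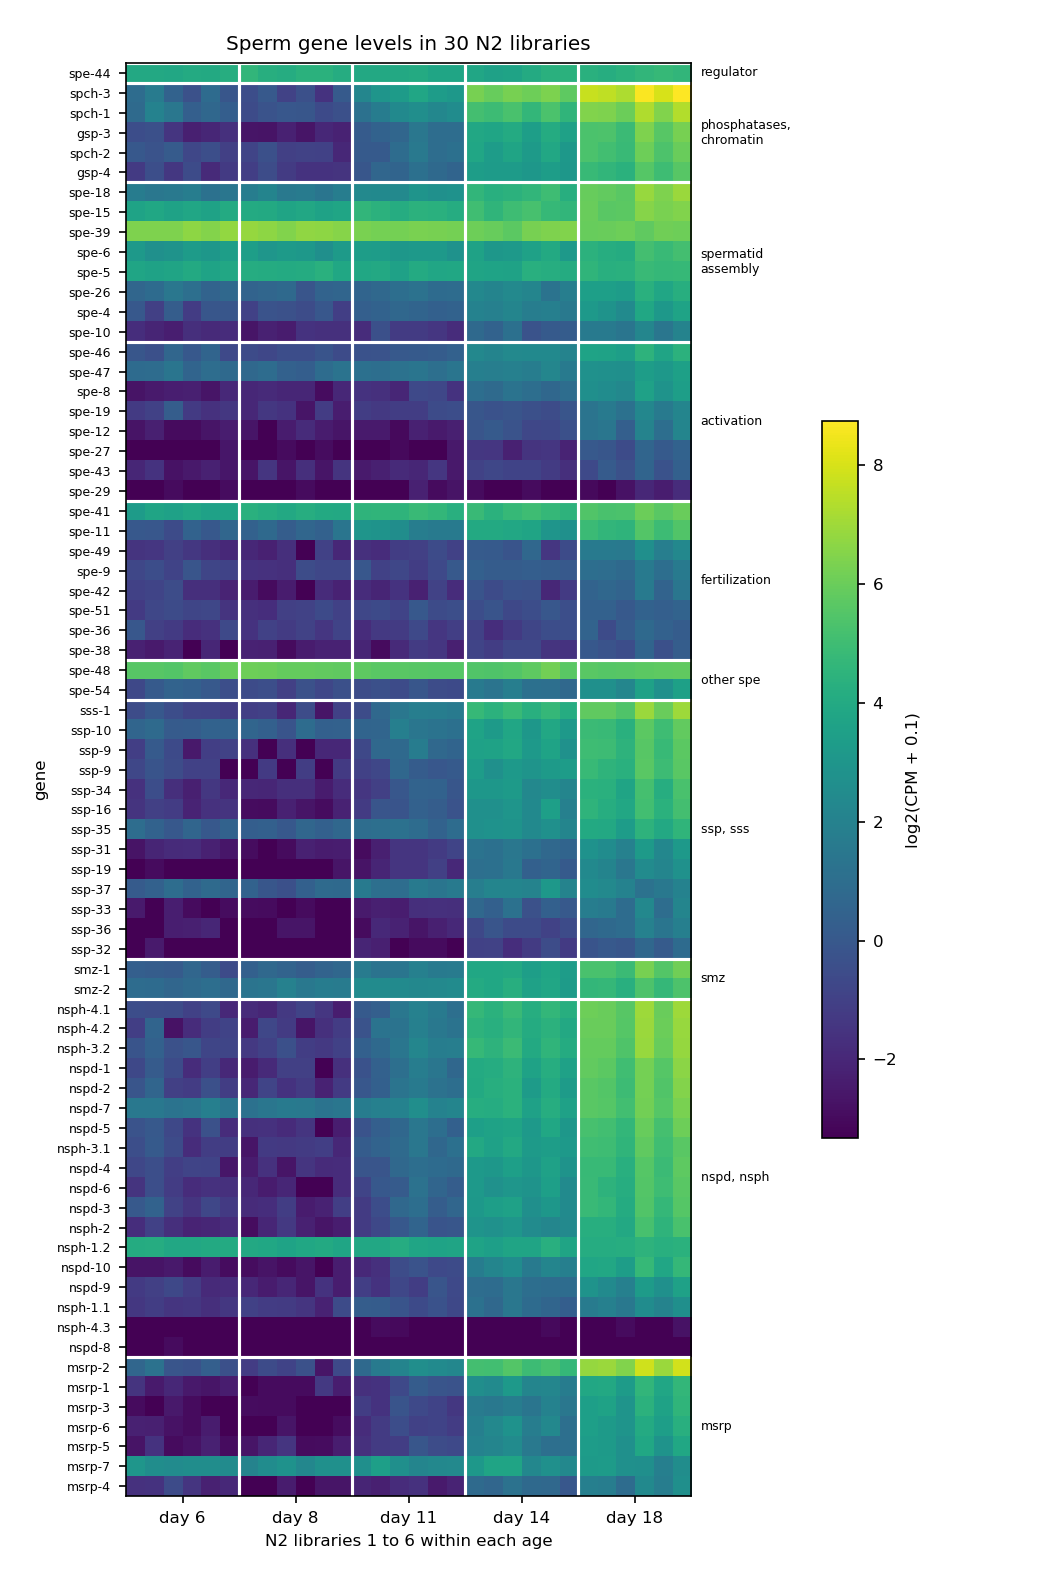
Level of 72 of the 74 spermatogenesis genes (rows, grouped by role) in the 30 N2 libraries of the time course (columns, libraries 1 to 6 within each age), as log2(CPM + 0.1) in colour. Most rows are dark at days 6 and 8 and brighten from day 11 to day 18, while spe-39, spe-48, spe-44 and nsph-1.2 change little beside the others.

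The sperm chromatin and phosphatase genes were among the most changed. All 5 rose at day 18, with a median log2 fold change of 6.48. The gene spch-3, which encodes a sperm chromatin protein, was at 0.687 to 3.10 CPM at day 6 (median 1.51) and at 150.8 to 426 CPM at day 18 (median 233). Its 6 day 18 libraries all lay above its 6 day 14 libraries, which reached 82.9 CPM, and its log2 fold change from day 6 was 7.49 (SE 0.37, adjusted p = 1.9e-16). At day 18 it was the highest of all 74 genes in mean CPM (272 ± 116, SD, n = 6), although its level per kilobase of exon, 362 CPM, was below the 509 CPM per kilobase of msrp-2. Its paralog spch-1 went from 1.11 to 3.998 CPM (median 1.61) to 64.2 to 162 CPM (median 87.2), a log2 change of 5.78 (SE 0.32, adjusted p = 1.3e-15). The third gene, spch-2, rose by 6.08 (SE 0.30, adjusted p = 6.9e-17). Summed over spch-2 and spch-3, which share reads, the level was 2.28 ± 1.01 CPM at day 6 and 318 ± 132 CPM at day 18 (SD, n = 6).

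The gsp-3 and gsp-4 genes encode paired sperm-specific type 1 phosphatases that act in sperm meiosis and motility. In the day 6 libraries gsp-3 was at 0.106 to 0.680 CPM (median 0.242), and in those of day 18 at 30.1 to 83.3 CPM (median 44.8), with a log2 change of 7.35 (SE 0.35, adjusted p = 3.5e-17). For gsp-4 the values were 0.175 to 0.653 CPM (median 0.316) and 20.5 to 48.1 CPM (median 29.8), with a log2 change of 6.48 (SE 0.28, adjusted p = 4.1e-18). Neither gene's groups overlapped. The ratio of gsp-3 to gsp-4 within a library was 0.944 ± 0.596 at day 6, 0.333 ± 0.203 at day 8 and 1.57 ± 0.121 at day 18 (SD, n = 6). This ratio was picked after the levels were seen and was not tested. A few of their reads were divided between the copies too.

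The regulator spe-44, a SAND-domain protein that controls many spermatogenesis genes, moved little. It was at 15.0 to 18.0 CPM at day 6 (median 15.8), 17.5 to 24.3 at day 8 (median 19.7), 13.4 to 16.2 at day 11 (median 15.4), 11.8 to 20.5 at day 14 (median 15.4) and 18.3 to 27.3 at day 18 (median 22.4). The first and last of these groups did not overlap, and the rise between them was 0.55 on the log2 scale (SE 0.12, adjusted p = 2.3e-04). Between day 8 and day 11 spe-44 fell by 0.37 (SE 0.12, adjusted p = 0.021).

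Genes of spermatid assembly gave 8 that rose and 1 that fell of 9 at day 18, with a median of 3.05. Among those that rose were spe-10 (4.33), which encodes a palmitoyltransferase, and spe-18, which acts in the assembly of the fibrous bodies that hold the major sperm protein. In the day 6 libraries spe-18 was at 2.13 to 3.36 CPM (median 2.74), at day 14 at 18.8 to 31.5 CPM (median 22.7) and at day 18 at 49.6 to 119.9 CPM (median 73.2). These 3 groups were apart, and the log2 fold change at day 18 was 4.94 (SE 0.21, adjusted p = 3.2e-18). The myosin VI gene spe-15 went from 12.2 to 16.3 CPM (median 13.3) at day 6 to 49.4 to 93.3 CPM (median 71.1) at day 18, a log2 change of 2.44 (SE 0.14, adjusted p = 1.2e-15), although it overlaps other annotated genes. The presenilin gene spe-4 rose by 3.77, the kelch-family gene spe-26 by 3.05, the casein kinase gene spe-6 by 1.66 and the vacuolar ATPase gene spe-5 by 0.89. The exception was spe-39, a vesicle trafficking gene that also acts outside the germ line in the worm. Its level was 84.0 to 112 CPM at day 6 (median 87.6) and 56.0 to 69.4 CPM at day 18 (median 64.5). Its groups did not overlap either, and it fell by 0.46 on the log2 scale (SE 0.10, adjusted p = 2.1e-04). With all 36 day 6 N2 libraries as controls the fall of spe-39 was 0.22 and did not pass.

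All 7 tested genes of sperm activation rose, with a median of 4.05. Genes that entered the age fit only through their late values were not set apart here. They include spe-8, a tyrosine kinase gene (log2 fold change 6.40), spe-27 (6.35), spe-12 (5.48), spe-43 (3.02) and spe-19 (2.92), which act in the activation of hermaphrodite sperm. The highest in CPM were spe-46 and spe-47, in which mutations let sperm activate too early. The first was at 0.541 to 1.46 CPM at day 6 (median 0.863) and 10.8 to 21.8 CPM at day 18 (median 12.9), a log2 change of 4.05 (SE 0.22, adjusted p = 2.6e-16). The second went from 1.40 to 2.48 CPM (median 1.77) to 6.30 to 11.4 CPM (median 7.67), or by 2.26 (SE 0.18, adjusted p = 1.4e-12). Neither pair of groups overlapped.

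All 9 fertilization genes rose as well, with a lower median of 2.52. The TRP channel gene spe-41 and the gene spe-11, whose product the sperm brings into the egg for the early embryo, were the highest in CPM. The level of spe-41 was 9.78 to 13.9 CPM at day 6 (median 12.1), 15.4 to 20.2 at day 8 (median 16.7) and 38.7 to 65.2 at day 18 (median 46.6), a log2 fold change at day 18 of 2.12 (SE 0.13, adjusted p = 4.3e-15). The level of spe-11 was 0.573 to 1.497 CPM at day 6 (median 0.894) and 22.7 to 45.1 CPM at day 18 (median 30.1), a log2 change of 5.11 (SE 0.32, adjusted p = 7.3e-15). In both genes the ages compared were apart. The sperm surface genes spe-9 (2.10), spe-38 (3.51), spe-42 (2.52) and spe-49 (3.93), and spe-36 (1.52) and spe-51 (1.53), whose products are secreted by sperm, rose from means of at most 0.547 CPM. Several of them, among them spe-9, spe-36, spe-38 and spe-49, overlap other annotated genes. Of the remaining spe genes, spe-54 rose by 3.13 and spe-48, at 45.6 to 60.5 CPM at day 6 and 47.4 to 55.4 CPM at day 18, differed by 0.08 (adjusted p = 0.47).

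**Figure D2:**
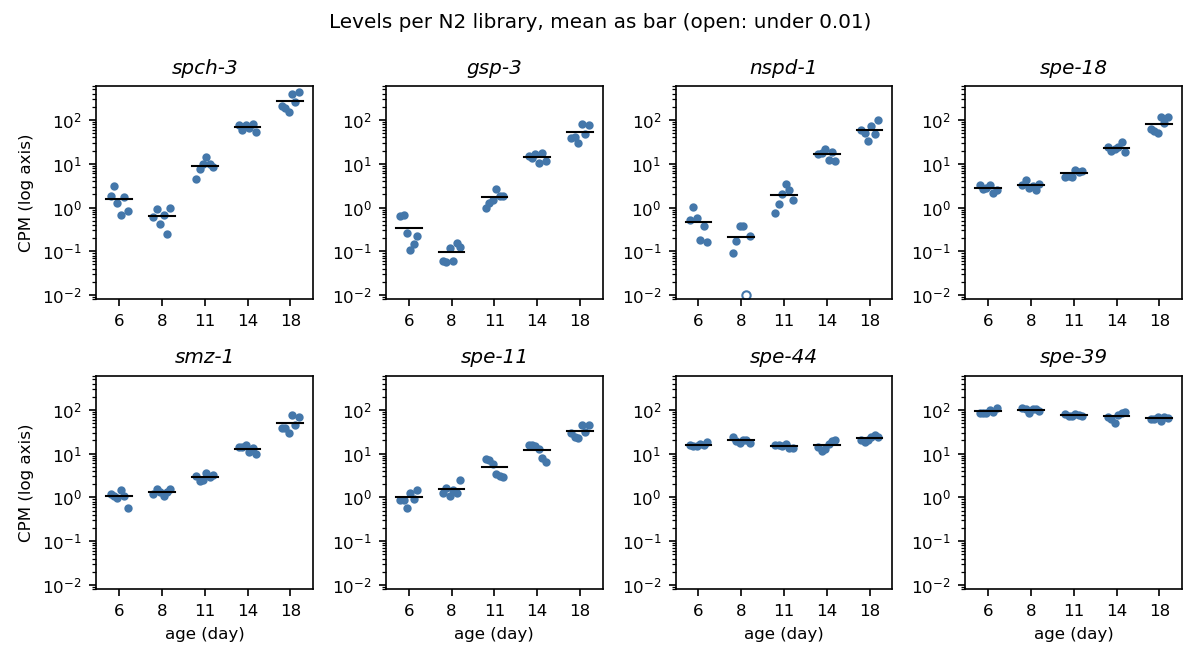
CPM of 8 genes in each N2 library by age (points, log axis, with the mean of 6 libraries as a bar, and an open point for a value under 0.01). The levels of spch-3, gsp-3, nspd-1, spe-18, smz-1 and spe-11 climb from day 11 to day 18, that of spe-44 stays between 11.8 and 27.3 CPM, and that of spe-39 declines.

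The nspd and nsph families rose in full among the genes tested. All 16 tested nspd and nsph genes rose at day 18 with a median of 6.44, from 0.31 for nsph-1.2 to 8.29 for nspd-10. The call of nsph-1.2 was lost without library 4 of each age (0.26, adjusted p = 0.073) and in libraries 1 to 3 alone (0.19). The gene nspd-1 was at 0.159 to 1.01 CPM at day 6 (median 0.446), 11.9 to 21.9 at day 14 (median 16.9) and 32.5 to 100.5 at day 18 (median 54.9), a log2 fold change at day 18 of 7.06 (SE 0.43, adjusted p = 1.1e-14). The gene nspd-7, already at 2.32 to 3.64 CPM at day 6 (median 2.64), reached 34.3 to 78.5 CPM at day 18 (median 48.5), with a log2 change of 4.38 (SE 0.20, adjusted p = 7.8e-18). The copies nsph-4.1 and nsph-4.2 were together at 0.940 ± 0.526 CPM at day 6 and 161 ± 65.0 CPM at day 18 (SD, n = 6). Their fitted log2 fold changes were 7.45 (SE 0.36, adjusted p = 7.2e-17) and 7.50 (SE 0.45, adjusted p = 1.1e-14).

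Among the ssp and sss genes, all 13 rose, with a median of 6.21. The gene sss-1 went from 0.350 to 0.898 CPM (median 0.524) at day 6 to 42.6 to 125 CPM (median 58.8) at day 18, a log2 change of 7.15 (SE 0.40, adjusted p = 2.0e-15). That of ssp-10 was 4.90 (SE 0.27, adjusted p = 3.3e-16), and that of ssp-16 was 6.56 (SE 0.32, adjusted p = 4.0e-17). The gene ssp-37 behaved otherwise at the end of the series. Its mean was 1.42 ± 0.330 CPM at day 6, 4.79 ± 1.80 at day 14 and 3.94 ± 1.31 at day 18 (SD, n = 6), and the step from day 14 to day 18 was -0.23 and did not pass (adjusted p = 0.42). Of the 7 msrp genes, 6 rose, with a family median of 7.09. The highest was msrp-2, at 0.669 to 2.20 CPM at day 6 (median 0.972) and 87.5 to 241 CPM at day 18 (median 120.5), a log2 change of 7.09 (SE 0.37, adjusted p = 7.2e-16). The remaining member, msrp-7, was at 5.497 to 7.90 CPM at day 6 (median 5.88) and 3.59 to 9.81 CPM at day 18 (median 6.44), a difference of 0.26 (adjusted p = 0.40).

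Both genes of the smz family, PDZ-domain proteins of sperm meiosis, rose. The level of smz-1 was 0.573 to 1.45 CPM at day 6 (median 1.08) and 29.8 to 77.3 CPM at day 18 (median 42.6), a log2 change of 5.63 (SE 0.23, adjusted p = 1.8e-18). That of smz-2 went from 1.46 to 1.92 CPM (median 1.73) to 19.3 to 41.7 CPM (median 25.9), by 4.204 (SE 0.18, adjusted p = 3.3e-18). Every day 18 library was above every day 6 library in both.

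Few of the genes were higher at day 8. At day 8, 2 of the 71 genes (2.82%) were higher than at day 6, against 5.55% of all tested genes, and 14 (19.7%) were lower, against 6.12% (11.7% changed either way). The groups did not overlap in 2 higher and 3 lower genes, against 4.98% and 3.85% of all tested genes. The median log2 fold change was -0.53, against -0.02 over all tested genes. The higher genes were smz-2 (0.81, SE 0.17, adjusted p = 0.0024) and spe-41 (0.51, SE 0.13, adjusted p = 0.0091). Among the lower ones were msrp-4 (-2.81, SE 0.58, adjusted p = 0.0018), spch-1 (-1.52, SE 0.33, adjusted p = 0.0034), ssp-16 (-1.97, SE 0.50, adjusted p = 0.011), gsp-3 (-1.80), spch-3 (-1.29), msrp-2 (-1.39), spe-42, spe-19, 1 of the ssp-9 IDs, nspd-3, nspd-4, nspd-5, nspd-6 and nspd-9. The fall of msrp-4 rests on low counts. With its copy msrp-3 it summed to 0.287 ± 0.190 CPM at day 6 and 0.0502 ± 0.0405 CPM at day 8 (SD, n = 6). The level of spch-1 was 1.11 to 3.998 CPM at day 6 and 0.551 to 0.854 CPM at day 8 (medians 1.61 and 0.705), with no overlap. How many genes fell depended on the libraries used. The 5 chromatin and phosphatase genes summed to 5.36, 9.19 and 5.52 CPM in day 6 libraries 1 to 3, to 3.01, 4.25 and 2.87 CPM in libraries 4 to 6, and to 1.59 to 3.003 CPM at day 8. In the 30 N2 libraries of the second day 6 set they summed to 3.47 to 9.59 CPM (median 5.78), all above the 6 day 8 libraries. The count of lower genes was 4 without library 1 of each age, 2 without library 2, 3 without library 3, 7 without library 5, and 0 in libraries 4 to 6 alone. It was 16 without library 6, 21 in libraries 1 to 3 alone and 33 with all 36 day 6 N2 libraries as controls. Under the 16 alternatives tried for spch-1, its call was lost in 1.

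At day 11, 43 of the 71 genes (60.6%) were higher than at day 6, against 24.1% of all tested genes, and 0 were lower, against 19.9% (43.9% changed either way). At an unadjusted p under 0.05 edgeR gave 1 lower gene, spe-39. At an adjusted p under 0.05 DESeq2 gave 0. The median was 1.13, against 0.03. At day 14, 63 (88.7%) were higher and 1, spe-39, was lower, against 29.8% and 26.9% of all tested genes (56.7% changed either way), with a median of 3.64, against 0.01. The day 14 fall of spe-39 did not pass with the 2 ages alone (adjusted p = 0.058) or in libraries 4 to 6 (adjusted p = 0.065). With all 36 day 6 N2 libraries as controls it was -0.08 (adjusted p = 0.495), and the 1 gene called lower there was another. Not overlapping with day 6 and higher were 19 genes at day 11 and 57 at day 14, against 12% and 14.6% of all tested genes. Not overlapping and lower were 1 gene at day 11, spe-39, and 0 genes at day 14, against 17.8% and 11.1%.

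Between successive ages, the step from day 8 to day 11 gave 54 higher and 3 lower of 71 (median 1.77), against 18% and 11.7% of all tested genes (29.6% changed either way). In this step 34 genes were higher and 3 lower with no overlap, against 8.24% and 12.3%. The lower ones were spe-39, spe-44 and spe-48 (-0.25, SE 0.09, adjusted p = 0.033). Without library 1 of each age none of these 3 passed (adjusted p = 0.056, 0.11 and 0.096), and spe-44 did not without library 5 (adjusted p = 0.052), nor spe-48 without library 2, 3, 4 or 6. The step from day 11 to day 14 gave 59 higher and 0 lower (median 2.58), against 10.1% and 4.52% (14.6% changed either way), and 54 were higher and 0 lower with no overlap, against 7.18% and 0.742%. The step from day 14 to day 18 gave 67 higher and 0 lower (median 1.75), against 27.5% and 23.5% (51% changed either way), and 61 were higher and 0 lower with no overlap, against 11.2% and 6.37%. In neither of these 2 steps was a gene lower at an unadjusted p under 0.05 in edgeR, or called lower by DESeq2. Over all tested genes the medians of these 3 steps were 0.06, -0.01 and 0.05. In these steps gsp-3 changed by 4.16, 3.03 and 1.95, gsp-4 by 2.16, 2.65 and 1.86, spch-1 by 2.74, 2.80 and 1.77, and spch-3 by 3.88, 2.90 and 2.01. Fertilization genes had smaller steps, with group medians of 0.77, 1.10 and 1.28, and sperm activation genes had 0.68, 2.32 and 1.99. Differences between these groups were not tested.

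**Figure D3:**
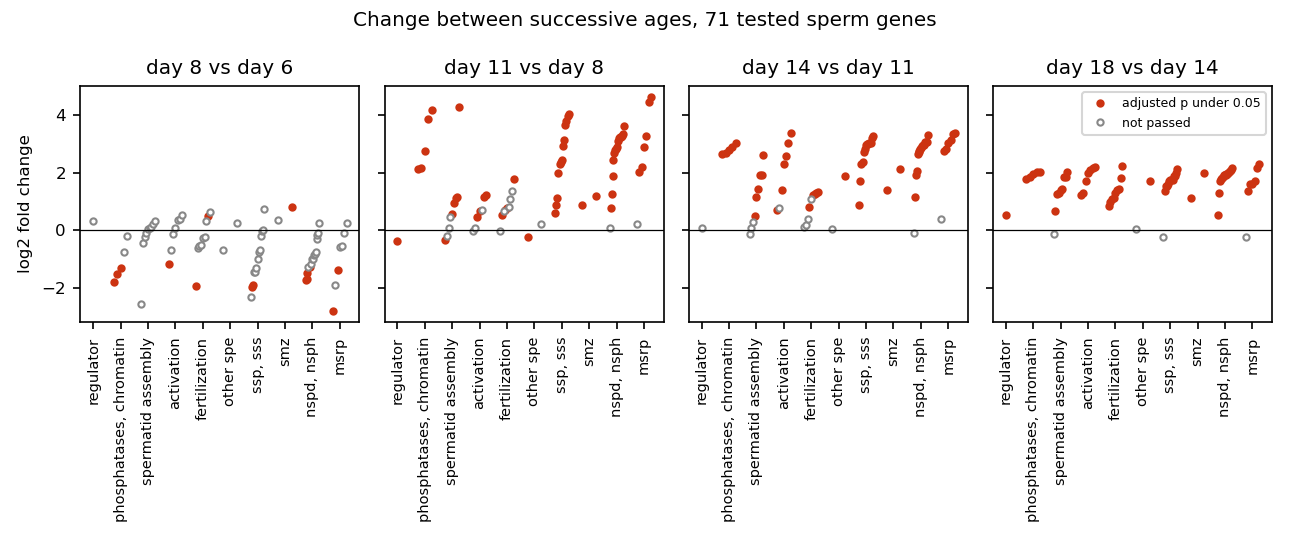
Log2 fold change of each of the 71 tested genes between successive ages (points, by role group along the horizontal axis, filled where the adjusted p was under 0.05). Between day 6 and day 8, 14 genes are filled below 0 and 2 above, and in each later step most genes are filled above 0, with 67 of 71 from day 14 to day 18.

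Summed over all 74 genes, the level lay between 252 and 295 CPM at day 6, between 266 and 313 CPM at day 8, between 307 and 365 CPM at day 11, between 657 and 893 CPM at day 14 and between 1415 and 3279 CPM at day 18. The last 2 ages lay above all earlier libraries and apart from each other. Which genes made up the sum changed with age. At day 6, spe-39 and spe-48 held 34.5% and 19.03% of it and the chromatin and phosphatase genes held 1.90%. At day 18, spe-39 and spe-48 held 3.13% and 2.47%, the chromatin and phosphatase genes 22.3%, the nspd and nsph genes 29.1%, the ssp and sss genes 11.8% and the msrp genes 9.55%. The day 18 libraries spread widely. Libraries 4 and 6 reached 3173 and 3279 CPM, and libraries 1, 2, 3 and 5 lay between 1415 and 2017 CPM. Of the 68 genes that rose by day 18, 67 had a higher day 18 mean in libraries 4 to 6 than in libraries 1 to 3, with a median ratio of 1.67. At day 14 the same was so of 13 of the 68, with a median ratio of 0.83. The labels give every library the same batch value. In libraries 1 to 3 alone and in libraries 4 to 6 alone the count of higher genes at day 18 stayed within 1.5 times that of the whole fit.

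**Figure D4:**
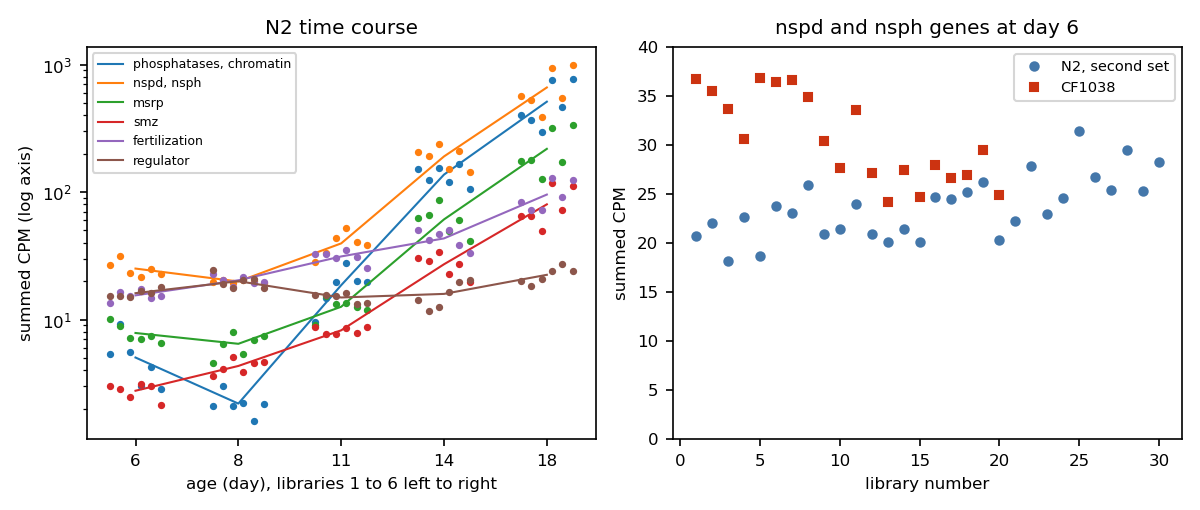
Summed CPM of 6 role groups in each N2 library by age (left, points with a line through the means, log axis) and of the nspd and nsph genes in each day 6 library of the second set by library number (right). On the left the chromatin and phosphatase genes go from 5.04 CPM at day 6 to 512 CPM at day 18 in the mean while spe-44, the regulator, goes from 16.1 to 22.4, and on the right CF1038 libraries 1 to 3, 5 to 8 and 11 lie above all N2 libraries.

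Position and exon structure were not used by the symbol rule. The rule took whole families of related genes, however, so these features are not independent from gene to gene. Of the 74, 28 lie on chromosome I and 26 on chromosome IV, 9 on II, 7 on V and 4 on III, and 0 on X, which holds 13.5% of the 19725 protein-coding genes with a count. The chromosomes I and IV hold 14.4% and 16.5% of those genes. A single exon makes up 25 of the 74 (33.8%), against 2.97% of the coding genes. These are all 10 nspd genes, 9 of the 12 ssp IDs and 6 of the 7 msrp genes, and none of the 29 spe genes. The median exon length was 789.5 bases, against 1170 over the coding genes. Within 20000 bases of another of these genes lay 28 of them, in 15 neighbouring pairs. Several pairs are members of the same family, such as msrp-3 and msrp-4 or nspd-3 and nspd-6, and the share over all genes was not taken. On chromosome I, msrp-2 (6087430 to 6087729, minus strand), nspd-1 (6097579 to 6097791, minus), spch-3 (6098927 to 6099731, plus) and ssp-16 (6102067 to 6102396, plus) of the WBcel235 assembly follow each other, and their log2 fold changes at day 18 were 7.09, 7.06, 7.49 and 6.56.

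On chromosome IV, spe-44 (12452063 to 12454215, minus strand) and smz-1 (12455050 to 12456299, plus) lie 834 bases apart and point away from each other, with log2 fold changes at day 18 of 0.55 and 5.63. The ratio of smz-1 to spe-44 within a library was 0.0664 ± 0.0186 at day 6, 0.0688 ± 0.0158 at day 8, 0.199 ± 0.0367 at day 11, 0.879 ± 0.317 at day 14 and 2.22 ± 0.695 at day 18 (SD, n = 6). The pair was picked after these changes were seen, so the ratio is a description. The ratio of spch-3 to spch-1 was 0.803 ± 0.260 at day 6 and 2.52 ± 0.235 at day 18 (SD, n = 6), although spch-3 shares reads with spch-2.

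Other genes of sperm development, listed by function and not by these symbols, moved too. Of 21 tested, 18 rose at day 18 and 0 fell, against 29% and 28% of all tested genes, with a median of 4.82. They include the dysferlin-like gene fer-1 (2.99), the Argonaute genes alg-3 (6.56) and alg-4 (6.89), which act in spermatogenesis, and gipc-1, from 1.12 ± 0.332 to 185 ± 72.9 CPM (7.42, SE 0.27, adjusted p = 7.9e-19). The 3 that did not pass were zipt-7.1, wee-1.3 and elt-1. The genes fog-1 and fog-3, which direct germ cells to the sperm fate, were higher from day 8 on. The level of fog-3 was 0.942 ± 0.219 CPM at day 6, 3.13 ± 0.486 at day 8, 5.45 ± 1.47 at day 11, 8.98 ± 3.54 at day 14 and 17.6 ± 3.63 at day 18 (SD, n = 6), with log2 fold changes from day 6 of 1.74 at day 8 (adjusted p = 6.7e-06) and 4.29 at day 18 (adjusted p = 4.5e-16). That of fog-1 was 34.4 ± 1.85 CPM at day 6, 82.6 ± 12.1 at day 8 (log2 fold change 1.27, adjusted p = 8.4e-05) and 136 ± 26.6 at day 18 (2.05). The upstream sex determination and switch genes gave 5 higher and 2 lower of 12 at day 18 (median 0.21), against 29% and 28%. The lower ones were fem-3 (-0.89), which promotes the sperm fate, and tra-2 (-0.44), which opposes it, and fbf-2, a repressor of fem-3, rose by 0.77.

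Marker genes of other tissues were read beside these changes. Of all tested genes, 29% were higher and 28% lower at day 18 than at day 6. Marker counts near those shares are not read as a change in a tissue. The 13 markers of male somatic tissue had sums between 9.62 and 11.4 CPM at day 6, between 10.8 and 21.3 CPM at day 14 and between 12.6 and 16.9 CPM at day 18. Of the 9 tested, 2 rose at day 18, mab-3 (1.299) and trf-1 (1.09), and 1 fell, dmd-3 (-1.32). The seminal fluid protease gene try-5 was at 5.46 ± 0.530 CPM at day 6 and 6.82 ± 1.85 at day 18 (0.40, adjusted p = 0.066), and at 10.8 ± 3.36 at day 14 (1.01, adjusted p = 2.8e-05). The markers cwp-1, cwp-2, cwp-3 and mab-23 were below the filter, with means of at most 0.144 CPM at day 6 and day 18. The lowest of them, cwp-3, had a mean of 0.0168 CPM at day 18. Oocyte markers were high throughout, with sums between 8979 and 11710 CPM at day 6 and between 8009 and 9671 CPM at day 18, and gave 1 higher and 9 lower of 11. Germ cell markers gave 4 higher and 0 lower of 8, led by the meiotic gene syp-1 (1.02), somatic gonad markers 0 and 2 of 5, and embryo markers 1 and 4 of 7. Against day 6, the germ cell markers gave 0 higher and 4 lower at day 11 and again at day 14. All tested genes gave 24.1% and 19.9% at day 11 and 29.8% and 26.9% at day 14. From day 14 to day 18, 6 germ cell markers rose and 0 fell, against 27.5% and 23.5% of all tested genes. The part of any of these in the rise of the spermatogenesis genes was not tested.

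In CF1038 at day 6, part of the genes were higher than in N2, chiefly nspd and nsph genes. Of the 55 tested, 22 (40%) were higher, against 18% of all 16126 tested genes, and 2 (3.64%) were lower, against 20.7% (38.7% changed either way). The median log2 fold change was 0.20, against -0.01 over all tested genes, and it ran from -0.75 to 1.40. In none of the 55 were the 20 CF1038 libraries apart from the 30 N2 libraries, which held for 0.136% of all tested genes in the higher and 0.496% in the lower direction. The higher genes were 12 of 15 nspd and nsph genes, 5 of 9 ssp and sss IDs, gsp-3, gsp-4, spch-3, msrp-2 and spe-44. None of the 7 assembly or 3 activation genes tested passed, nor did smz-1 and smz-2, and of the 8 fertilization genes 1 passed, which was lower. The 55 were kept by a filter set from both strains, so a gene could enter through its CF1038 values. Genes that entered in this way were not set apart, so the filter may have raised the share of 40%. With no filter on low counts, 25 of the 74 genes were higher and 1 was lower. With a stricter filter, 6 of the 21 tested were higher and 1 was lower. The shares of all tested genes in each direction under these filters are not given here.

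The gene nspd-1 was at 0.0789 to 0.925 CPM (median 0.416) in N2 and at 0.224 to 2.30 CPM (median 1.02) in CF1038, a log2 change of 1.40 (SE 0.22, adjusted p = 8.7e-07). That of ssp-10 was 0.479 to 1.67 CPM (median 1.03) and 1.37 to 2.54 CPM (median 1.89), or 0.87 (SE 0.11, adjusted p = 4.9e-09), and that of msrp-2 was 0.252 to 1.49 CPM (median 0.840) and 0.727 to 2.76 CPM (median 1.82), or 0.95 (SE 0.15, adjusted p = 8.0e-07). The 2 strains overlapped in each. The phosphatase gene gsp-3 was 0.71 higher (SE 0.17, adjusted p = 6.1e-04), gsp-4 0.66 (SE 0.19, adjusted p = 0.0045) and spch-3 0.71 (SE 0.17, adjusted p = 5.5e-04), while spch-1 differed by 0.22 (adjusted p = 0.10) and spch-2 by -0.02 (adjusted p = 0.94). The regulator spe-44 was 0.18 higher (SE 0.07, adjusted p = 0.039). The lower genes were spe-11, at 0.177 to 1.81 CPM in N2 (median 0.811) and 0.186 to 0.937 in CF1038 (median 0.570), or -0.75 (SE 0.20, adjusted p = 0.0025), and ssp-37, or -0.40 (SE 0.15, adjusted p = 0.031). The call of spe-44 ended with all 36 day 6 N2 libraries as controls (0.16, adjusted p = 0.063), and that of ssp-37 with no filter on low counts (-0.38, adjusted p = 0.051). That of spe-11 ended with a block for library number (-0.52, adjusted p = 0.056), although the numbers did not meet the rule for pairing given below.

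**Figure D5:**
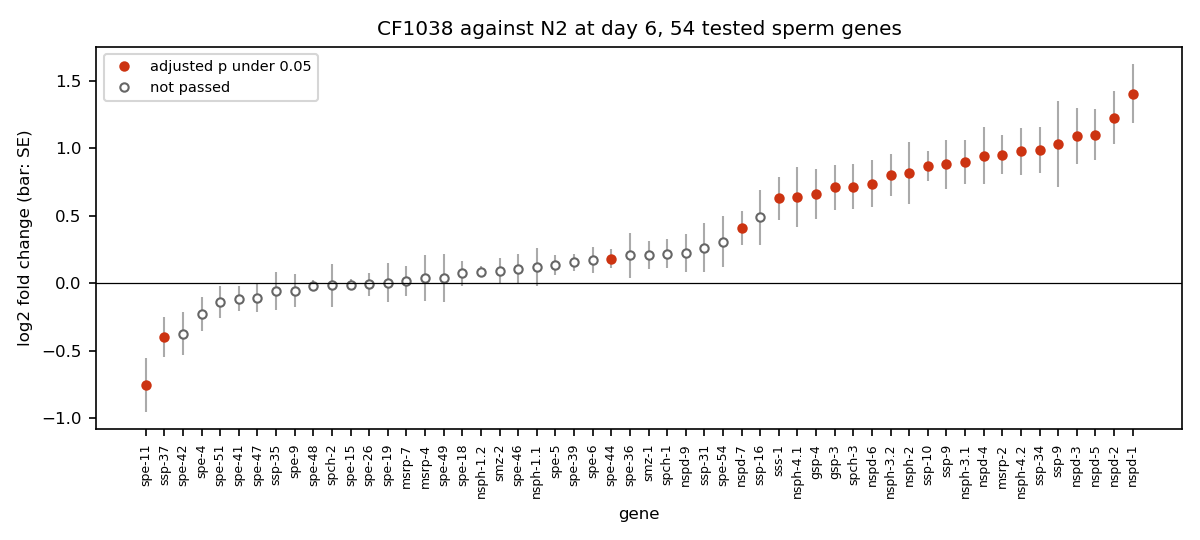
Log2 fold change of CF1038 against N2 at day 6 for 54 of the 55 tested genes in order of size (points, bars show SE, filled where the adjusted p was under 0.05). Filled points are 22 above 0, up to 1.40 for nspd-1, and 2 below 0, spe-11 and ssp-37.

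The values in CF1038 differed between its lower- and higher-numbered libraries. The nspd and nsph genes summed to 27.7 to 36.8 CPM in CF1038 libraries 1 to 10 (median 35.2) and to 24.2 to 33.6 in libraries 11 to 20 (median 27.1). In N2 they summed to 18.1 to 25.9 CPM in libraries 1 to 10 (median 21.7), 20.1 to 26.2 in libraries 11 to 20 (median 22.7) and 22.2 to 31.5 in libraries 21 to 30 (median 26.1). With libraries 1 to 10 of both strains alone, 28 of 53 tested genes were higher and 1 was lower. With libraries 11 to 20 alone, 11 of 54 were higher and 2 were lower. Over all tested genes, 6777 of 15887 changed either way in libraries 1 to 10 and 5855 of 15715 in libraries 11 to 20. The split of these by direction is not given here. Of the 22 genes higher in the whole comparison, 8 were also higher in libraries 11 to 20, 13 did not pass there and 1 was not tested, while 3 genes were higher there alone. Those that did not pass were nspd-3 (0.66), nspd-4 (0.77), nspd-5 (0.59), nspd-6 (0.46), nspd-7 (0.20), nsph-3.1 (0.55), nsph-4.1 (0.46), 1 of the ssp-9 IDs (0.16), sss-1 (0.53), gsp-3 (0.55), gsp-4 (0.62), spch-3 (0.47) and spe-44 (0.15). In libraries 1 to 10 spe-11 (-0.09) and ssp-37 (-0.20) did not. The numbers are library names, and the labels tie them to no batch. Markers of other tissues moved by at most 0.52 in size. Higher were 3 of 11 oocyte, 2 of 8 germ cell, 2 of 9 male soma (lov-1 and her-1) and 1 of 5 somatic gonad markers, against 18% of all tested genes. Lower were 3 of 5 somatic gonad and 3 of 7 embryo markers, against 20.7%. The part of these markers' tissues in the strain difference was not tested.

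The time course shares no library with the strain comparison, so values of both can be set beside each other. The 22 genes higher in CF1038 had a median log2 fold change from day 6 to day 18 in N2 of 6.51 (0.55 to 7.50), and the 31 that did not pass had a median of 3.05 (-0.46 to 6.56). This is a description of these genes and was not tested. Among sperm genes outside the symbols used here, CF1038 had 8 higher and 0 lower of 17, against 18% and 20.7% of all tested genes. The smallest adjusted p was that of msd-4 (1.01, SE 0.17, adjusted p = 5.1e-06). Neither fog-1 (0.12, adjusted p = 0.058) nor fog-3 (-0.10, adjusted p = 0.54) passed.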

How the data were processed

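RNA-seq of whole hermaphrodites gave paired reads of 150 nt, per the labels. The submitters' processing notes name FastQC, STAR 2.7.11b and RSEM 1.3.3 and the WBcel235 assembly. Neither the kit nor its strand setting is given in the sources used here, so overlapping genes on opposite strands may share reads. The deposited values are expected counts per gene, 2.73% of them not whole because RSEM divides reads between similar genes, and they were rounded here. Positions and exon lengths come from the Ensembl annotation of WBcel235.

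The ages were fitted with edgeR 4.0.16 (robust quasi-likelihood, R 4.3.3) on the 30 time-course libraries, with 1 coefficient per age, and the strains on 20 CF1038 and 30 N2 libraries. Genes passed filterByExpr at a minimum count of 10, TMM set the library scale, and p-values were adjusted by Benjamini-Hochberg over all tested genes. Counting error is covered only by the fit. DESeq2 1.42.0, other size factors, other filters, library subsets, left-out libraries, other controls and a replicate block were tried. Ratios of 2 genes were taken within a library from CPM and not tested. The edgeR script was tested on simulated data. Genes given full statistics were the 2 highest per role group, the 3 with the smallest adjusted p per comparison and direction, those called against the main direction, and gsp-3, gsp-4, spe-44 and the spch genes. The members and lists were chosen with earlier results of these data known. Values of 2 of the genes are not reported here by name, although the counts and medians include them.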

Additional observations from a re-analysis of the deposited data

Results flagged for a closer look

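In 7 of 165 groups of 6 libraries, 1 library lay far from the other 5, with a gap over 0.625 of the group's range (Dixon's test), and chance alone flags about 1 group in 20. For gsp-4 at day 8, library 2 was at 0.606 CPM and the others at 0.236 to 0.368. For msrp-7, library 1 of day 6 was at 7.90 CPM, with the others at 5.497 to 5.98, and library 2 of day 11 was at 11.2 CPM, with the others at 4.37 to 6.42. For nsph-4.2 at day 6, library 2 was at 1.36 CPM and the others at 0.0521 to 0.446, a gene that shares reads with nsph-4.1. For spe-48 at day 14, library 5 was at 70.7 CPM and the others at 42.5 to 52.9, which also set apart the sum of spe-48 and spe-54 in that library, at 72.7 CPM against 44.9 to 55.02. The sum of all 74 genes at day 11 was 365 CPM in library 4 and 307 to 322 CPM in the others.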

How the results depend on the processing

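Counts of higher spermatogenesis genes at day 18, day 14 and day 11 and in the 3 later steps stayed within 1.5 times their value in every alternative run. For every called gene and comparison, 5685 of 5939 values under alternatives kept their direction and side of the threshold, 254 kept the direction and no longer passed, and 0 reversed. The lost calls were 73 of 246 values at day 8, 73 of 837 in the step from day 8 to day 11, 29 of 678 at day 11, 29 of 1013 at day 14, 26 of 878 in the step from day 11 to day 14, 18 of 194 in CF1038, 3 of 1096 at day 18 and 3 of 997 in the step from day 14 to day 18. The cause was not tested for any count below.

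Higher genes at day 8 were 5 with the 2 ages alone, 4 in DESeq2, 9 with all 36 day 6 libraries, 5 with a covariate for libraries 1 to 3 and 4 to 6, 6 in libraries 1 to 3 and 1 in libraries 4 to 6, and 1 to 3 with 1 library number left out. Lower genes at day 8 were 6 with the 2 ages alone, 33 with all 36 day 6 libraries, 0 in libraries 4 to 6, and 2 to 16 with 1 number left out. Lower genes at day 11 were 1 with the 2 ages alone, 2 with all 36, 1 in libraries 1 to 3, 1 in libraries 4 to 6, 1 with the stricter filter (minimum count 50), and 0 to 1 with 1 number left out. Lower genes at day 14 were 0 with the 2 ages alone, 2 in libraries 1 to 3, 0 in libraries 4 to 6, and 1 to 2 with 1 number left out. Lower genes at day 18 were 0 with all 36. With 1 number left out, the steps from day 8 to day 11 and from day 14 to day 18 had 0 to 2 and 0 to 1 lower genes. The step from day 11 to day 14 had 3 lower in libraries 1 to 3, and that from day 14 to day 18 had 2 in libraries 4 to 6.

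In CF1038, higher genes were 11 in libraries 11 to 20 and 6 with the stricter filter, which left 21 of the 74 genes tested. Over all tested genes, 5855 of 15715 changed either way in libraries 11 to 20 and 5655 of 12737 with the stricter filter. Lower genes were 1 in libraries 1 to 10, 1 with no filter, 1 with the stricter filter and 4 without N2 libraries 21 to 30.

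Equal library numbers did not meet the rule for pairing, which asks for a correlation over 0.1 of the deviations in every pair. The lowest was -0.352 to -0.0534 over the 6 numbers of the time course, and the 20 CF1038 and N2 pairs ran from -0.48 to 0.805 with a median of 0.355. In the time course 10 of 30 libraries correlated best with their own number, and 3 of 20 CF1038 libraries with the N2 library of their number. Over all genes the block gave 10274 strain calls of 15960, against 9063 in the same libraries without it. With the replicate block, lower genes at day 8 were 9, higher genes at day 18 were 68, and CF1038 had 28 higher and 4 lower genes, with spe-11 at -0.52 (adjusted p = 0.056).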
